A study of Tupaia belangeri chinensis with 36 samples.

Results

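The outer and inner subventricular zones (OSVZ and ISVZ) of the fetal cortex of the Chinese tree shrew (Tupaia belangeri chinensis) were compared at embryonic day 42 (E42), a late stage of cortical neurogenesis. The comparison holds every library that is labelled with this stage and with one of these layers, which is 4 of the 36 libraries of the series, 2 from the OSVZ and 2 from the ISVZ. The other libraries came from the ventricular zone (VZ), intermediate zone (IZ), cortical plate (CP, at later stages split into an inner part, CPi, and an outer part, CPo) and marginal zone (MZ) at E42, and from cortical layers at E28 and E37. The labels name no genotype and no treatment, and the tissue was cut by laser from Nissl-stained frozen sections. The layer was thus chosen by position and cell density and not by a cell marker, and each library averages all cells of the strip. The labels give no litter or animal for a library. The paper states that every experiment had biological replicates, but its text does not tie a library to an animal. How much of the spread between replicates is technical thus cannot be told. The p-values rest on this spread over all layers and stages fitted, and not only on that of the 4 libraries compared. In bulk tissue of this kind, fewer cells of a type and less RNA per cell cannot be told apart.

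The subventricular zone is the germinal layer above the ventricular zone. Its inner part is rich in intermediate progenitors, which divide to give neurons, and it is also a route by which interneurons born outside the cortex enter it. Its outer part holds outer radial glia, progenitors that have left the ventricular surface, among newborn neurons on their way through the intermediate zone to the cortical plate. Late in neurogenesis the germinal layers also begin to make glia.

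The deposited counts list 76871 features, of which 26858 had enough counts to be tested. Most of the tested features (15911) carry a TSDBGID identifier, which the tables used here did not pair with a gene symbol, so these are given by identifier and the coding markers of the layers were not checked. Gene names enter through noncoding features, which are named after a gene as LINC-gene-number (3922 tested) or, for antisense transcripts, as gene-AS-number (6914 tested). Such a name marks the gene after which the transcript was named and not the level of that coding gene, and without strand in the counts, reads of an antisense feature cannot be told from those of its partner. The counts on features were 36896538 and 52442035 in the ISVZ libraries (replicates 1 and 2) and 25143369 and 37619553 in the OSVZ libraries. Over the 13249 features of at least 1 CPM (counts scaled to the normalised size of the library), the median absolute log2 difference was 0.224 between the ISVZ replicates and 0.322 between the OSVZ replicates, against 0.303 to 0.364 between a library of one layer and a library of the other. The difference between layers thus overlapped with that between replicates. The file labelled E42 VZ replicate 2 holds the same counts as E28 VZ replicate 2 and was left out, so the E42 VZ has 1 library here.

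A total of 208 features differed between the layers at E42 at an adjusted p under 0.05 (edgeR's quasi-likelihood test with Benjamini-Hochberg adjustment), which is 0.774% of those tested. Of these, 128 were higher in the OSVZ (0.477%) and 80 were lower (0.298%), and at an unadjusted p under 0.05 there were 1203 and 1030. The calls comprised 196 TSDBGID features (1.23% of those tested), 7 LINC features (0.178%) and 5 AS features (0.0723%). The differences were larger among the lower features, with a median log2 difference (OSVZ minus ISVZ) of −1.91 against 1.27 among the higher ones, where the median absolute log2 difference of all tested features was 0.4451. The lower features were also less abundant, with a median of 26.51 CPM against 130.1 CPM, so these medians are not matched for level. More than 4-fold differences were seen in 37 of the 80 lower and 25 of the 128 higher features. For all 208 features the 2 libraries of one layer lay above the 2 of the other, as they did for 39.3% of all tested features, and the calls were chosen on these same values. The number of calls depended on single libraries: it was 62 without OSVZ replicate 1, 154 without OSVZ replicate 2, 73 without ISVZ replicate 1 and 58 without ISVZ replicate 2. It was 116 when all 36 libraries entered as labelled. The sign of each of the 208 features stayed the same in all of these fits, which follows from the lack of overlap and is no test of them.

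**Figure D1:**
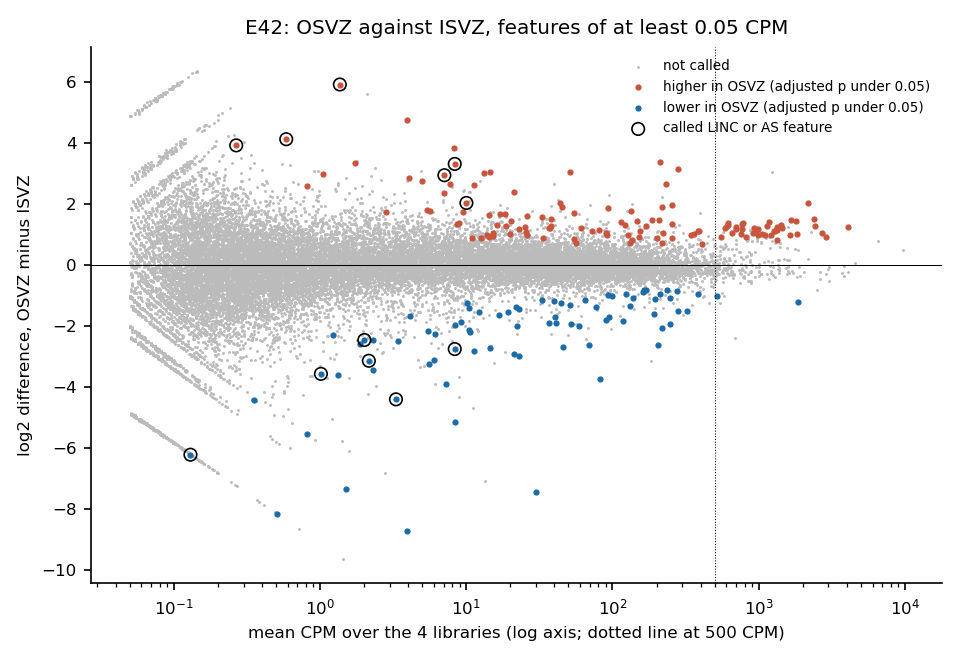
Each point is a feature with a mean of at least 0.05 CPM over the 4 libraries (x axis, log scale), with the log2 difference of OSVZ minus ISVZ at E42 on the y axis. Features at an adjusted p under 0.05 are coloured, 128 higher (red) and 80 lower (blue) in the OSVZ, and the 12 LINC and AS features among them are circled. Right of the dotted line at 500 CPM, 40 red points form a narrow band and only 2 are blue.

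Some features higher in the OSVZ were higher again in the neuronal layers above it. LINC-PLCL1-8, named after a phospholipase C-related protein without enzyme activity, was at 0.024 and 0.0896 CPM in the ISVZ and at 1.39 and 0.846 CPM in the OSVZ, from 1, 5, 36 and 34 counts, with a log2 difference of 4.11 (SE 0.705, adjusted p = 0.002). Its levels went on to 4.45 and 6.31 CPM in the IZ and 29.7 and 20.4 CPM in the CPo. At E28 it was also higher in the OSVZ (log2 difference 3.84, adjusted p = 0.025). LINC-PLCL1-8 did not pass the threshold without ISVZ replicate 1.

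TSDBGID.4755 was at 48.9 and 25.9 CPM in the ISVZ and at 376 and 389 CPM in the OSVZ (log2 difference 3.35, SE 0.483, adjusted p = 0.0013). The OSVZ replicates differed little and stood far above the ISVZ replicates, and the CPo was higher again, at 2120 and 2100 CPM. TSDBGID.4965 climbed in the same order, from 1.13 and 1.02 CPM in the ISVZ to 19.8 and 11.1 CPM in the OSVZ and 261 and 265 CPM in the CPo, with a log2 difference of 3.84 between the subventricular layers (SE 0.382, adjusted p = 8.6e-06). TSDBGID.18555 was at 15.5 and 6.49 CPM in the ISVZ against 91.3 and 90.2 CPM in the OSVZ, and it was highest in the CPi, at 443 and 478 CPM. All 3 were also called higher in the OSVZ at E28 (log2 differences of 3.96, 2.90 and 3.88) and, with TSDBGID.12597, were the 4 of 36 named calls that passed the threshold in every alternative tried.

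**Figure D2:**
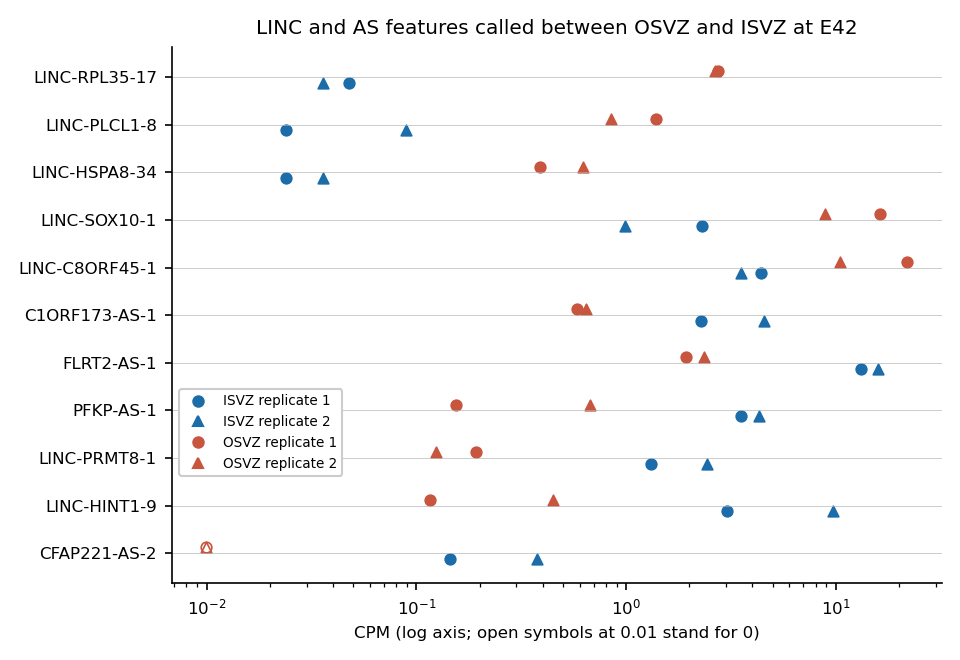
CPM (x axis, log scale) of 11 LINC and AS features called between the layers at E42, with 1 symbol per library, blue for the ISVZ and red for the OSVZ, circles for replicate 1 and triangles for replicate 2. The upper 5 features were higher and the lower 6 lower in the OSVZ, and for each of them the symbols of the layers do not overlap; CFAP221-AS-2 had no count in the OSVZ.

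A transcript named after a gene of the oligodendrocyte lineage followed another pattern. LINC-SOX10-1 is named after SOX10, a transcription factor of oligodendrocyte precursors and of the neural crest. It was at 2.30 and 0.985 CPM in the ISVZ and at 16.2 and 8.86 CPM in the OSVZ, from 96, 55, 420 and 356 counts (log2 difference 2.93, SE 0.704, adjusted p = 0.042). The layers did not overlap, although the OSVZ replicates were uneven, and the call was lost whichever 1 of the 4 libraries was left out. Outside the comparison, LINC-SOX10-1 was at 4.37 and 10.1 CPM in the IZ, 0.652 CPM in the VZ and 0.355 and 0.335 CPM in the CPo, so the OSVZ and the IZ held its highest levels and the outer cortical plate the lowest. At E28 it lay between 0.108 and 0.122 CPM in all 4 subventricular libraries.

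The 3 called features most like LINC-SOX10-1 across the 31 libraries outside the comparison were TSDBGID.3645 (Pearson r = 0.859 of log2(CPM + 1), a description across layers and stages that share their library preparation), TSDBGID.2414 (r = 0.845) and TSDBGID.27537 (r = 0.831). TSDBGID.3645 was at 61.8 and 53 CPM in the ISVZ and at 509 and 506 CPM in the OSVZ, with a log2 difference of 3.15 (SE 0.480, adjusted p = 0.0017). The IZ held 358 and 540 CPM, against 35.9 CPM in the VZ and 21.4 and 19.6 CPM in the CPo. TSDBGID.2414 was at 72 and 57.4 CPM in the ISVZ and at 363 and 442 CPM in the OSVZ (log2 difference 2.64, adjusted p = 0.011). TSDBGID.27537 showed the largest difference among the TSDBGID features called higher with at least 1 CPM in both OSVZ libraries, with 0.384 and 0.179 CPM in the ISVZ and 8.62 and 6.64 CPM in the OSVZ (log2 difference 4.76, SE 1.02, adjusted p = 0.015). TSDBGID.20917 and TSDBGID.10665 were at 21.6 to 26.9 CPM in the OSVZ and at 2.20 to 3.72 CPM in the ISVZ. Both were low in the CPo, at 0.489 to 1.69 CPM. In the VZ, however, TSDBGID.20917 was at 9.12 CPM, above the ISVZ. It was not called between the IZ and the VZ (log2 difference, IZ minus VZ, 0.60, adjusted p = 0.58). The calls of TSDBGID.3645 and TSDBGID.20917 were lost without ISVZ replicate 2, that of TSDBGID.10665 without either ISVZ library, and that of TSDBGID.27537 without any of the libraries except OSVZ replicate 2.

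Further noncoding features called higher in the OSVZ were LINC-C8ORF45-1, LINC-HSPA8-34 and LINC-RPL35-17. LINC-C8ORF45-1 was at 4.39 and 3.51 CPM in the ISVZ and at 21.8 and 10.4 CPM in the OSVZ (log2 difference 2.03, SE 0.348, adjusted p = 0.0017), and it was highest in the MZ (27.2 and 25.6 CPM). LINC-HSPA8-34 is named after the constitutive heat shock chaperone HSPA8, whose many processed copies can share reads, and had 1, 2, 10 and 25 counts in the order ISVZ and OSVZ. That is a ratio of 17.2 with a 95% counting interval of 5.43 to 87.5 (adjusted p = 0.024), and at E28 its log2 difference was 4.41 (adjusted p = 0.00062). LINC-RPL35-17, named after a protein of the large ribosomal subunit and open to the same doubt, had 2, 2, 71 and 106 counts (log2 difference 5.91, SE 1.43, adjusted p = 0.044). The calls of LINC-HSPA8-34 and LINC-RPL35-17 were lost whichever 1 of the 4 libraries was left out, and that of LINC-C8ORF45-1 without OSVZ replicate 1 or ISVZ replicate 2.

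Features lower in the OSVZ included transcripts whose levels were highest in the inner cortical plate. PFKP-AS-1 is antisense to PFKP, a phosphofructokinase of glycolysis, and was at 3.52 and 4.28 CPM in the ISVZ and at 0.155 and 0.672 CPM in the OSVZ (log2 difference −3.15, SE 0.558, adjusted p = 0.0029). Both ISVZ libraries were above both OSVZ libraries, and yet the feature stood at 24.1 and 28.3 CPM in the IZ and at 54.8 and 46.4 CPM in the CPi. Its level in the OSVZ was thus below those in the ISVZ and the IZ on either side, and the VZ was low as well (0.118 CPM). LINC-PRMT8-1, named after a brain-enriched arginine methyltransferase, showed the same order. It was at 1.32 and 2.42 CPM in the ISVZ and 0.193 and 0.124 CPM in the OSVZ (log2 difference −3.57, SE 0.639, adjusted p = 0.0027). The VZ held 0.0592 CPM, the IZ 2.80 and 2.15 CPM and the CPi 17.7 and 17.6 CPM. The call of PFKP-AS-1 was lost without OSVZ replicate 1 and that of LINC-PRMT8-1 without OSVZ replicate 2 or ISVZ replicate 2.

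FLRT2-AS-1 is antisense to FLRT2, an adhesion protein that binds UNC5 receptors and acts in the migration of cortical neurons. It was at 13.2 and 15.9 CPM in the ISVZ and at 1.93 and 2.34 CPM in the OSVZ (log2 difference −2.76, SE 0.583, adjusted p = 0.016), with 16.8 and 17.7 CPM in the CPi. LINC-HINT1-9, named after a nucleotide-binding protein of the histidine triad family, was at 3.02 and 9.64 CPM in the ISVZ against 0.116 and 0.448 CPM in the OSVZ (log2 difference −4.41, SE 0.889, adjusted p = 0.0089). The ISVZ replicates were uneven, but both lay above the OSVZ, and at E28 LINC-HINT1-9 was lower in the OSVZ as well (log2 difference −2.65, adjusted p = 0.038). C1ORF173-AS-1 was at 2.28 and 4.53 CPM in the ISVZ and at 0.58 and 0.647 CPM in the OSVZ (log2 difference −2.46, adjusted p = 0.049). CFAP221-AS-2, antisense to a gene of motile cilia, had 6 and 21 counts in the ISVZ and 0 in both OSVZ libraries, which is at least 5.73-fold lower when the OSVZ is set at 3 counts over the group (adjusted p = 0.038). The calls of FLRT2-AS-1, C1ORF173-AS-1 and CFAP221-AS-2 were lost whichever 1 of the 4 libraries was left out, and that of LINC-HINT1-9 was lost without OSVZ replicate 1 or ISVZ replicate 2.

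**Figure D3:**
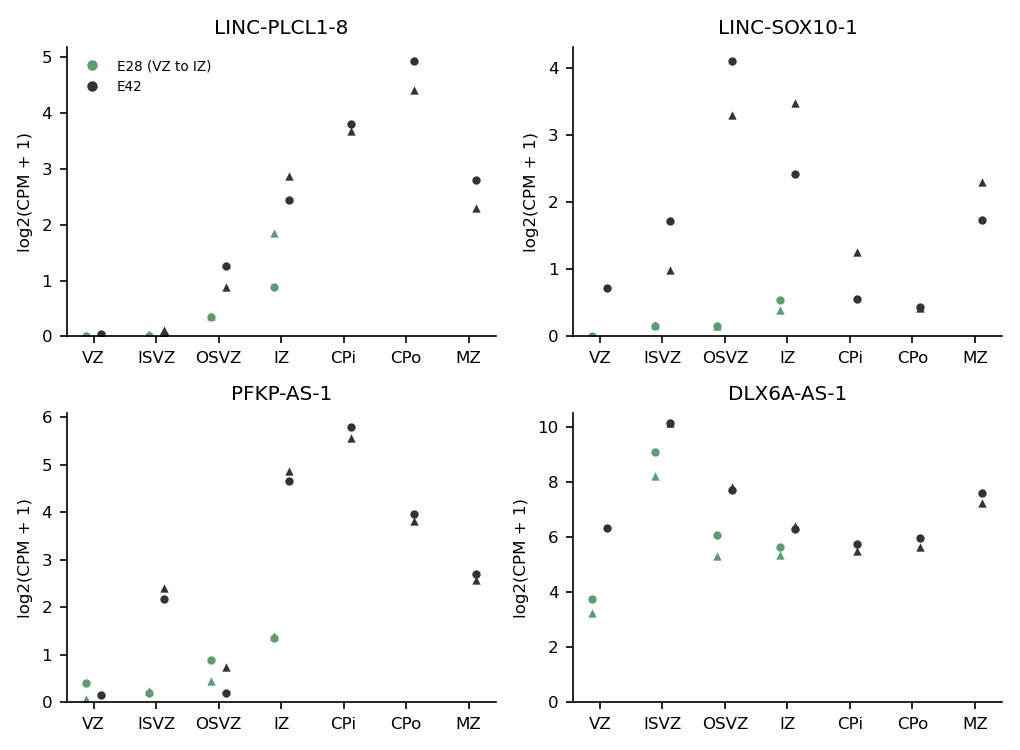
Levels of 4 noncoding features in the layers from the VZ to the MZ, as log2(CPM + 1), with 1 symbol per library (circles replicate 1, triangles replicate 2), black for E42 and green for E28 (only VZ, ISVZ, OSVZ and IZ are drawn). LINC-PLCL1-8 is higher in the OSVZ than in the ISVZ at both stages and highest in the CPo at E42. LINC-SOX10-1 peaks in the OSVZ and IZ at E42. PFKP-AS-1 at E42 is low in the VZ and the OSVZ, and higher in the ISVZ between them and in the IZ. DLX6A-AS-1, which did not pass the test at E42, is highest in the ISVZ.

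The largest differences among TSDBGID features were toward the ISVZ, and several rested on uneven replicates. TSDBGID.9214 was at 1.89 and 13.7 CPM in the ISVZ, with 845 counts in both libraries together against 1 count in the OSVZ, a ratio of 572 with a 95% counting interval of 102 to 22600 (adjusted p = 0.00096). TSDBGID.7198 was at 22.5 and 97 CPM in the ISVZ and at 0.387 and 0.299 CPM in the OSVZ (log2 difference −7.45, adjusted p = 0.025). Both were higher in ISVZ replicate 2 than in replicate 1 and near 0 in the VZ, IZ and CP, with 2.46 to 12.3 CPM in the MZ. OTX2-AS-1, antisense to a transcription factor of the choroid plexus, was also highest in ISVZ replicate 2, with 0.12 and 1.74 CPM in the ISVZ and 0.0387 and 0.199 CPM in the OSVZ (log2 difference −2.85, adjusted p = 0.52). The 19 tested features named after markers of other cells (endothelial, mural, microglial, choroid, ependymal, blood and Cajal-Retzius) summed to 7.10 and 6.81 CPM in the ISVZ and to 5.95 and 6.97 CPM in the OSVZ, and their part in these results was not tested.

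TSDBGID.23222 was at 138 and 170 CPM in the ISVZ, 12.7 and 10.4 CPM in the OSVZ, 9.46 and 17.9 CPM in the IZ and 85.3 and 66 CPM in the CPi (log2 difference −3.74, SE 0.733, adjusted p = 0.016). Its level was thus low in both the OSVZ and the IZ. TSDBGID.7914 was at 3.12 and 5.32 CPM in the ISVZ, 0.425 and 0.348 CPM in the OSVZ, 3.00 and 1.59 CPM in the IZ and 8.62 and 6.99 CPM in the CPi. TSDBGID.20961, TSDBGID.19325, TSDBGID.24817 and TSDBGID.13497 had log2 differences of −3.61, −5.54, −5.17 and −3.91. Among them, TSDBGID.20961 and TSDBGID.19325 were highest in the VZ, at 23.7 and 2.46 CPM in its 1 library. The most abundant feature that was lower in the OSVZ was TSDBGID.17038, at 2390 and 2800 CPM in the ISVZ and 1100 and 1140 CPM in the OSVZ (log2 difference −1.21, SE 0.200, adjusted p = 0.0013). TSDBGID.6738 and TSDBGID.25122 followed, with log2 differences of −1.04 and −0.95. The call of TSDBGID.17038 was lost without ISVZ replicate 2, those of TSDBGID.6738 and TSDBGID.25122 whichever 1 of the 4 libraries was left out, and that of TSDBGID.25122 also with all 36 libraries (adjusted p = 0.52). Of the 8 TSDBGID features with the largest lower difference among those with at least 1 CPM in both ISVZ libraries, only TSDBGID.9214 passed the threshold whichever library was left out.

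The calls that were higher in the OSVZ held a group of very abundant features. Above a mean of 500 CPM, a split chosen after the values were seen, 40 of 246 tested features were higher in the OSVZ (16.3%) and 2 were lower (0.813%), whereas at 100 to 500 CPM the numbers were 27 and 19 of 1955 features, and at 10 to 100 CPM 41 and 33 of 6327. The log2 differences of the 40 features lay between 0.82 and 2.03, with a median of 1.18. Together they took 3.24% and 3.74% of the counts in the ISVZ and 8.6% and 6.64% in the OSVZ. OSVZ replicate 1 had the highest share of all 35 libraries, and OSVZ replicate 2 was exceeded by it, by 3 MZ libraries and by 1 E28 IZ library. The share was 2.39% in the VZ, 4.07% and 5.79% in the IZ, 2.59% to 3.14% in the CPi and CPo, and 6.10% and 7.55% in the MZ.

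These abundant features moved together in libraries that did not enter the comparison. Over the 31 other libraries, the median Pearson correlation between pairs of the 40 was 0.895 (quartiles 0.821 and 0.939), against 0.0412 for the 204 features above 500 CPM that were not called and 0.23 for the 85 higher calls at 1 to 500 CPM. They are all TSDBGID features without a symbol here, and the most abundant, TSDBGID.11457, was at 2110 and 2700 CPM in the ISVZ and at 6300 and 5110 CPM in the OSVZ (log2 difference 1.25, SE 0.202, adjusted p = 0.001). TSDBGID.18771 and TSDBGID.26008 followed, with log2 differences of 0.91 and 1.05, and all 3 calls were lost without ISVZ replicate 1. At E28 only 1 of the 40 was called higher in the OSVZ, where 3.78% of all features were, and their median log2 difference there was 0.147. All 40 had the same sign in every alternative, which is no test of them because their libraries do not overlap between the layers. Their median log2 difference was 0.948 without OSVZ replicate 1 and 1.43 without OSVZ replicate 2. It was 1.06 without ISVZ replicate 1 and 1.38 without ISVZ replicate 2. Most of the 40 calls were lost without OSVZ replicate 1 or without ISVZ replicate 1.

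**Figure D4:**
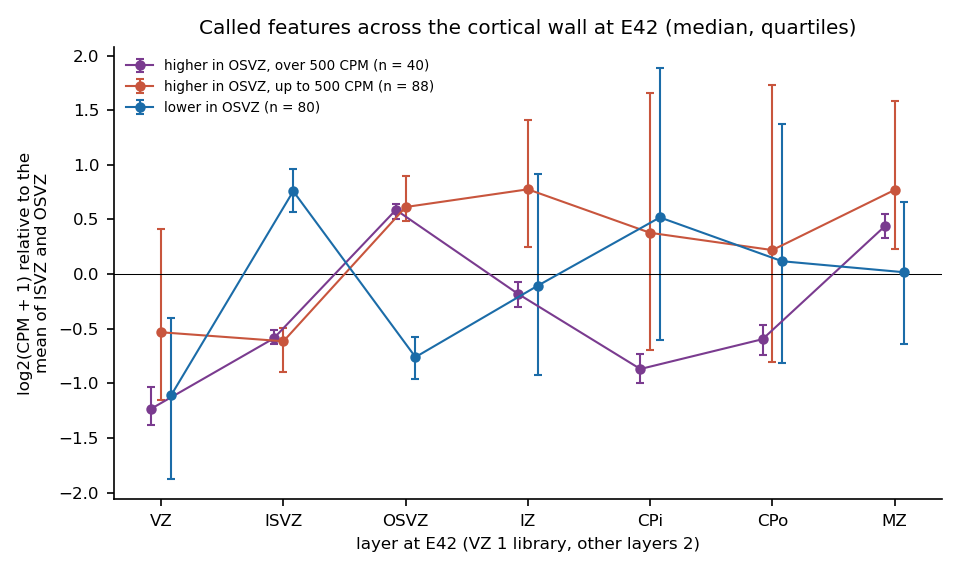
Median (points) and quartiles (bars) of the called features in each layer at E42, as log2(CPM + 1) relative to the mean of the ISVZ and OSVZ, for the 40 higher calls above 500 CPM, the other 88 higher calls and the 80 lower calls. The order of ISVZ and OSVZ follows from the choice of features; in the other layers, the 40 abundant features are high in the MZ and low in the VZ and CPi, and the lower calls rise again toward the CPi.

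In the layers on either side, calls of both directions were more often higher in the IZ than in the VZ, the neuronal and the ventricular neighbour. Of the 128 features higher in the OSVZ, 79 were also higher in the IZ than in the VZ at E42 (61.7%, against 7.16% of all features tested) and 8 were lower (8.06% of all), in libraries that the comparison did not use. Of the 80 features lower in the OSVZ, 34 were higher in the IZ than in the VZ (42.5%) and 8 were lower. Among the 80, a feature higher in the IZ was thus more frequent than the reverse. Relative to the CP, 52 of the 128 were higher in the IZ (40.6%, against 6.66% of all) and 9 lower, while of the 80 lower features 11 were higher in the IZ and 19 were lower (23.8%, against 5.21% of all). By mean CPM over the 7 layers at E42, 52 of the 128 were highest in the OSVZ (40.6%, against 10.9% of all features) and 27 in the MZ (21.1%, against 12%). Of the 80, 39 were highest in the ISVZ (48.8%, against 17% of all features) and 30 in the CPi (37.5%, against 13.3%). The counts for the OSVZ and the ISVZ follow in part from the choice of the features on these libraries. The shares of all features are not matched for level. Of the tested features, 13609 lay under a mean of 1 CPM over the 4 libraries compared. The median was 130.1 CPM among the 128 and 26.51 CPM among the 80, and the part of this in the gaps was not tested. The VZ rests on 1 library, and with all 36 libraries as labelled, 43 of 116 calls had the same direction between IZ and VZ, against 87 of 208 here.

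The E42 calls were set against the same 2 layers at E28, which share no library with them. At E28, 2400 features differed (8.94%), many more than at E42. Of the 128 features higher in the OSVZ at E42, 34 were also higher at E28 (26.6% of the E42 list and 3.35% of the E28 list), where 3.78% of all features were higher, and 7 were lower (5.47%). Of the 80 lower features, 21 were also lower at E28 (26.2% and 1.52% of the lists), where 5.16% of all features were lower, and 11 were higher (13.8%). The median log2 differences at E28 were 0.236 and −0.281, and 87 of the 128 and 48 of the 80 were not called at the earlier stage. Here too, the shares of all features are not matched for level.

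The change of the layer difference from E28 to E42 was tested itself, and 1066 features passed (3.97%). Among the 128 higher features, 41 had shifted toward the OSVZ (32%, against 2.32% of all features) and 6 toward the ISVZ, and among the 80 lower features, 35 had shifted toward the ISVZ (43.8%, against 1.65%) and 0 toward the OSVZ. These counts use the E42 libraries that chose the features and are a description only. TSDBGID.18961 had the clearest reversal, with 32.3 and 30.9 CPM in the ISVZ and 11 and 13.4 CPM in the OSVZ at E42 (log2 difference −1.37), but 2.78 and 3.78 CPM in the ISVZ and 24 and 12.5 CPM in the OSVZ at E28 (log2 difference 2.47). The change was −3.84 (SE 0.340, adjusted p = 1.1e-07), and the feature was highest in the CPi and CPo, at 264 to 279 CPM. With all 36 libraries as labelled, its E42 difference did not pass the threshold (log2 difference −1.37, adjusted p = 0.64). The E42 call of TSDBGID.18961 was lost without OSVZ replicate 1 and that of TSDBGID.10065 without either ISVZ library. TSDBGID.12597 also reversed, from a log2 difference of 2.40 at E28 to −2.49 at E42, with 6.5 and 5.23 CPM in the ISVZ and 0.425 and 1.57 CPM in the OSVZ at E42 (change −4.89, adjusted p = 1.1e-05). TSDBGID.10065 reversed the other way, from −1.31 to 1.11, with 97.1 and 98.2 CPM in the ISVZ and 205 and 216 CPM in the OSVZ at E42 (change 2.42, adjusted p = 1.1e-05), and was highest in the VZ (322 CPM).

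**Figure D5:**
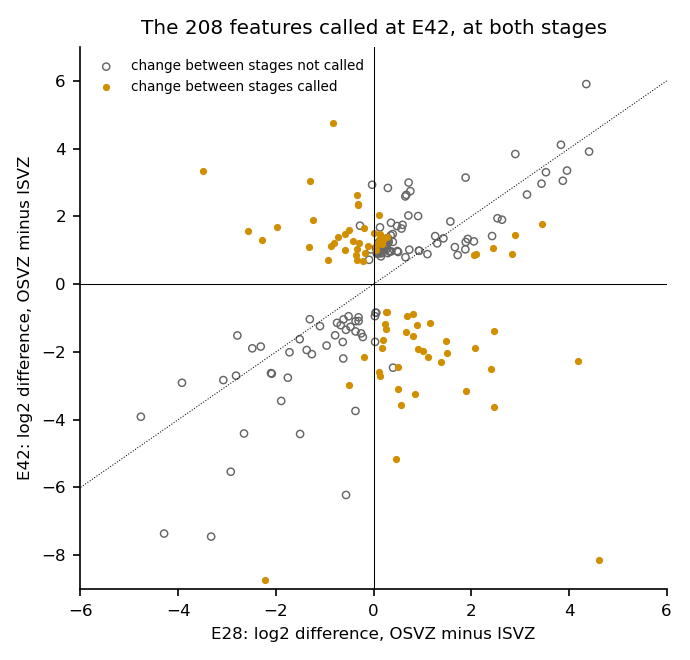
Each point is 1 of the 208 features called at E42, with its log2 difference of OSVZ minus ISVZ at E28 (x axis) and at E42 (y axis); filled points are those whose change between the stages passed an adjusted p under 0.05, and the dotted line marks equal differences. The band around y = 0 is empty because the features were chosen at E42; 34 of the upper points and 21 of the lower points were called in the same direction at E28.

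Noncoding features named after genes of cell types and pathways were counted by list, with 0.111% of the 10836 LINC and AS features called and a median log2 difference of −0.142 as background. Progenitor lists held no call. Features named after radial glia genes (40 tested) had a median log2 difference of −0.478, those of outer radial glia (26) 0.225, those of intermediate progenitors (15) −0.149 and those of the cell cycle (27) −0.509. In the outer radial glia list, 2 features were higher and 2 lower in the OSVZ at an unadjusted p under 0.05. Among them, LINC-TMEM132B-23 was at 3.52 and 1.93 CPM in the ISVZ and at 9.12 and 9.03 CPM in the OSVZ (log2 difference 1.74, adjusted p = 0.061). The layers did not overlap, as for 32.4% of all LINC and AS features, and it passed with DESeq2 (adjusted p = 0.0056). Other E42 layers were higher than the OSVZ, with 28.6 and 35.5 CPM in the MZ, 16.6 CPM in the VZ and 10.6 and 10.2 CPM in the CPi. At E28 the same feature was lower in the OSVZ (log2 difference −2.50, adjusted p = 0.00047), with a change between stages of 4.24 (adjusted p = 0.00015). LINC-PTPRZ1-1, named after a receptor phosphatase of outer radial glia, was at 0.911 and 1.38 CPM in the ISVZ and at 3.09 and 3.21 CPM in the OSVZ (log2 difference 1.45, adjusted p = 0.57). The 2 features on the other side, LINC-TMEM132B-3 and LINC-TMEM132B-6, had 16 and 23 and 4 and 10 counts in the ISVZ and 0 in the OSVZ (adjusted p = 0.09 and 0.54). In the cell cycle list, CCNB2-AS-2, antisense to a mitotic cyclin, was at 2.76 and 3.57 CPM in the ISVZ and 5.14 and 6.02 CPM in the OSVZ (adjusted p = 0.68). CCNB2-AS-1 lay the other way, with 8 and 26 counts in the ISVZ and 0 and 2 in the OSVZ (adjusted p = 0.69).

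Interneuron-named features leaned toward the ISVZ without a call. Of 39 tested, 25.6% had a log2 difference above 0, against 39.1% of all LINC and AS features, with a median of −0.767, and they summed to 92 and 95.9 CPM in the ISVZ and to 34.8 and 52.1 CPM in the OSVZ. LINC-SLC32A1-1, named after the vesicular transporter for GABA, was at 16.1 and 24.2 CPM in the ISVZ and at 4.87 and 7.17 CPM in the OSVZ (log2 difference −1.74, adjusted p = 0.42). DLX5-AS-1, antisense to a homeobox gene of ventral forebrain progenitors and interneurons, was at 11.6 and 11.1 CPM in the ISVZ and at 3.83 and 4.06 CPM in the OSVZ (log2 difference −1.52, adjusted p = 0.47). GAD1-AS-2, antisense to an enzyme of GABA synthesis, was at 6.14 and 7.76 CPM and at 1.08 and 3.63 CPM in the same order. The layers did not overlap for these 3 features, nor for 32.4% of all LINC and AS features. CALB2-AS-2, of the same list, had 10 counts in OSVZ replicate 1 and 0 in the other 3 libraries (adjusted p = 0.55).

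The most abundant feature of this kind was DLX6A-AS-1, from the homeobox list, at 1150 CPM in both ISVZ libraries and at 207 and 228 CPM in the OSVZ. The replicates were close within each layer and the other E42 layers lay between 43.8 and 195 CPM, so the ISVZ libraries were the highest. The log2 difference of −2.41 (SE 0.774) had an adjusted p of 0.26 in the fit over all layers and stages, and it passed with DESeq2 (adjusted p = 0.015), with only the 4 libraries (0.00033) and with only the E42 libraries (3.1e-07), while it ranged up to 0.73 with a library left out. At E28 DLX6A-AS-1 was lower in the OSVZ (log2 difference −2.99, adjusted p = 0.023), from 552 and 296 CPM to 67.6 and 39.3 CPM, and so was DLX5-AS-1 (log2 difference −2.38, adjusted p = 0.023).

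Glia-named features lay the other way. Of 22 tested, 72.7% had a log2 difference above 0, with a median of 0.78, and they summed to 7.26 and 6.92 CPM in the ISVZ and 26.9 and 17.6 CPM in the OSVZ, of which LINC-SOX10-1, the 1 call, gave 16.2 and 8.86 CPM in the OSVZ. SOX10-AS-1 was at 0.216 and 0.0179 CPM in the ISVZ and at 0.425 and 1.07 CPM in the OSVZ (adjusted p = 0.70). NKX2-2-AS-1, antisense to a homeobox gene of oligodendrocyte precursors, was at 0.0959 and 0.161 CPM against 0.58 and 0.846 CPM (adjusted p = 0.59), and neither SOX10-AS-1 nor NKX2-2-AS-1 had a count in the subventricular layers at E28.

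Among the lists of pathways, 1 of 103 axon guidance features (FLRT2-AS-1) was called lower, with a median log2 difference of −0.194. No feature was called among those named after morphogen signalling (124 tested), extracellular matrix (93), synaptic (156), voltage-gated channel (67) and zinc finger genes (299), whose median log2 differences were 0, 0, −0.163, 0 and −0.144. With 0.111% of all LINC and AS features called, lists of these sizes are not set apart by the absence of a call. LINC-ZNF316-2, named after a zinc finger gene, was at 15.5 and 14.9 CPM in the ISVZ and at 8.85 and 9.43 CPM in the OSVZ (log2 difference −0.74, adjusted p = 0.47). LINC-SLITRK3-1, named after a synaptic adhesion gene, was at 0.407 and 0.34 CPM and at 2.24 and 2.34 CPM (log2 difference 2.61, adjusted p = 0.28).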

How the data were processed

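RNA from cortical layers of fetal Chinese tree shrews, dissected by laser, was sequenced from poly(A) libraries. The deposited values are whole-number counts per feature, not normalized, which the authors made with HTSeq-count from alignments by HISAT (v2.1.0) and the annotation TS_3.0. The submitters' processing notes list HISAT2, SAMtools and HTSeq. The counter's lines for unassigned reads were removed. The counts carry no molecular identifiers, so counting intervals cover counting error only.

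From the counts, 35 distinct libraries in 18 groups of layer and stage were fitted in 1 model with edgeR 4.0.16 in R 4.3.3 (TMM, filterByExpr at a minimum count of 10, robust quasi-likelihood test, 17 residual degrees of freedom), with Benjamini-Hochberg adjustment over 26858 features and a threshold of 0.05. CPM values are TMM-normalised. On simulated data for this comparison (25351 features), the changed features were drawn only from those above a mean of 1 CPM. Of these, 18% of features changed by a log2 of 1 and 64% of those changed by 2 were found, with 2 false among 84 calls. Replicate libraries differed by more than sampling noise (chi-square per degree of freedom 35.74 in the ISVZ and 67.15 in the OSVZ). Features, lists and comparisons were chosen with earlier results of these data known. Named were the LINC and AS calls (1 of them is not reported here), in each direction the 8 TSDBGID calls with the largest difference (at least 1 CPM in both libraries of the higher layer) and the 3 most abundant, the 3 with the smallest p for the change between stages, and up to 4 members of a list with the smallest p. TSDBGID.2414 was named after its values were seen, for its likeness to LINC-SOX10-1. Alternatives were DESeq2 1.42.0 (the study's own method), its size factors, other sets of libraries and features, a fold threshold, a replicate block and single libraries left out. Figures were drawn with matplotlib.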

Additional observations from a re-analysis of the deposited data

Results flagged for a closer look

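For 1066 features, OSVZ and ISVZ differed by unlike amounts at E28 and at E42 by the interaction test of edgeR's quasi-likelihood model. Each value here is the log2 difference (OSVZ minus ISVZ) at E42 minus that at E28. Shifts toward the OSVZ were 5.58 for TSDBGID.27537, 6.83 for TSDBGID.6765, 4.32 for TSDBGID.20917 and 2.42 for TSDBGID.10065. TSDBGID.6765 was lower in the OSVZ at E28 (log2 difference −3.49, adjusted p = 0.036) and higher at E42 (3.35, adjusted p = 0.049), with 0.0275 and 0.0289 CPM in the OSVZ at E28. Its E42 call was lost whichever 1 of the 4 libraries was left out (adjusted p = 0.098 to 0.45) and with all 36 libraries (0.075).

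Shifts toward the ISVZ were −4.14 for LINC-PRMT8-1 and −5.03 for PFKP-AS-1, and −6.50 for TSDBGID.9214, −5.63 for TSDBGID.24817, −6.07 for TSDBGID.20961, −3.84 for TSDBGID.18961 and −4.89 for TSDBGID.12597. LINC-PRMT8-1 and PFKP-AS-1 were not called between the layers at E28 (log2 differences of 0.57 and 1.88, adjusted p = 0.65 and 0.091).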

How the results depend on the processing

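The 208 features kept their sign in each alternative that tested them, which is no test of them because their libraries do not overlap. The number of calls moved. Calls, higher calls and lower calls were 116, 68 and 48 with all 36 libraries as labelled, 505, 262 and 243 with only the 4 libraries, 980, 555 and 425 with only the E42 libraries, 540, 305 and 235 with DESeq2, and 456, 258 and 198 with no filter on low counts. LINC and AS calls numbered 46, 69, 28 and 25 in the last 4 of these. The change between stages gave 539 calls with all 36 libraries and 1917 with DESeq2. E42 calls with the same direction at E28 were 32 (all 36 libraries), 125 (DESeq2) and 116 (no filter), against 55 as reported, and those with the same direction between IZ and VZ were 43, 185 and 172, and 362 with only the E42 libraries, against 87. The IZ against CP comparison gave 5330 calls with only the E42 libraries and 1747 with a fold threshold, against 3190.

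With 1 library left out, calls ranged from 58 to 154, higher calls from 26 to 120, lower calls from 15 to 47, LINC and AS calls from 3 to 7, calls of the change between stages from 511 to 1114, calls shared with E28 from 19 to 29 and those shared with IZ against VZ from 20 to 86. The log2 difference of OTX2-AS-1 ranged from −4.43 to 0.114 and changed sign without ISVZ replicate 2. Of 36 named calls, 23 were lost without OSVZ replicate 1, 17 without OSVZ replicate 2, 18 without ISVZ replicate 1, 26 without ISVZ replicate 2 and 13 with all 36 libraries. Fewer libraries in these fits leave 1 library in a layer, which is assumed to vary like the other groups. The cause of the other moves was not tested.

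The labels do not say what a replicate number marks. Deviations of same-numbered E42 libraries correlated above 0.1 in 13 of 15 pairs of layers (0.164 for ISVZ and OSVZ, −0.193 for OSVZ and MZ), so the number was taken as shared only. With a replicate block within a stage there were 649 calls (397 higher, 252 lower), 28 LINC and AS calls, 2241 for the change between stages, 3819 at E28, 5039 between IZ and CP, and 166 and 218 calls shared with E28 and with IZ against VZ, and DLX6A-AS-1 passed (adjusted p = 3.7e-06). Depth limits features of low level: 13609 of the tested features lay under 1 CPM and 7 of them were called.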
